A study of Homo sapiens with 32 samples.

Results

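The 10 genes described here form the switch that lets a cell leave G1. They are the D-type cyclins CCND1, CCND2 and CCND3, their kinases CDK4 and CDK6, the CIP/KIP inhibitors CDKN1A (p21), CDKN1B (p27) and CDKN1C (p57), the INK4 inhibitor CDKN2C (p18) and the retinoblastoma gene RB1. They were chosen by symbol: a gene entered when its name in the deposited count tables equalled one of these. Each of the 10 symbols matched a single one of 62703 gene identifiers, and the 10 genes passed the filter on low counts in each of the 3 RNA kinds measured.

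A D-type cyclin binds CDK4 or CDK6, and the complex phosphorylates RB1, which otherwise holds the E2F transcription factors in check. INK4 proteins such as p18 bind the kinases and keep the cyclin away, while CIP/KIP proteins bind the assembled complexes and also block CDK2. CDKN1A is a classical target gene of p53. HEK293T, an established human embryonic kidney line, carries adenoviral E1A and E1B and the SV40 large T antigen, proteins known to bind RB1 and p53. IGF2BP1, IGF2BP2 and IGF2BP3, also called IMP1, IMP2 and IMP3, are RNA-binding proteins known for binding the 3′ untranslated regions (3′UTRs) of mRNAs and altering their stability and translation.

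The cells carried a CRISPR knockout of IGF2BP1, IGF2BP2 or IGF2BP3, or a non-targeting guide as the control, and had no other treatment. Per the labels, the knockouts came from transient plasmids that carried the guides and GFP, single GFP-positive cells were sorted, 1 clone was used per knockout, and the control was produced in parallel; whether the control is a clone is not given in the sources used here. The edited gene and the choice of clone therefore cannot be told apart as the source of a change. Nothing in the labels says that replicate libraries came from separate cultures, so the p-values measure the spread between these libraries, which may be technical. Poly(A) RNA was sequenced from whole cells (total RNA, 10 libraries), nuclei (10 libraries) and cytoplasm (12 libraries). Each RNA kind had 4 control libraries, in batches 1 to 4, 2 libraries of the IGF2BP1 knockout, in batches 1 and 2, and 2 libraries each of the IGF2BP2 and IGF2BP3 knockouts, in batches 3 and 4. Cytoplasmic RNA of the IGF2BP3 knockout had 2 more libraries, in batch 5, which held no control.

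Libraries held 13689067 to 26119480 counts. Levels below are in CPM, each count divided by the library total and put on a common scale, with TMM factors, which even out differences in RNA composition. The targeted gene was lowest in its own knockout: in cytoplasmic RNA IGF2BP1 stood at 357 to 435 CPM in the control and at 22.4 and 22.1 CPM in its knockout, IGF2BP2 at 84.2 to 89.3 CPM against 34.3 and 35.9 CPM, and IGF2BP3 at 68.3 to 74.8 CPM against 25.1 to 30.6 CPM. IGF2BP1 was also lower in the IGF2BP2 and IGF2BP3 knockouts, at -0.63 (SE 0.036) and -0.65 (SE 0.036) on the log2 scale. IGF2BP3 was at 0.31 (SE 0.050) in the IGF2BP1 knockout and -0.54 (SE 0.054) in the IGF2BP2 knockout, and IGF2BP2 at -0.31 (SE 0.049) in the IGF2BP3 knockout, all called, and at 0.07 (SE 0.048), not called, in the IGF2BP1 knockout. VIM, KRT8, KRT18, NEFM, NEFL and PAX2, genes this line is known to express, were detected in the control. The red cell gene HBB and the fibroblast gene COL1A2 were at 0 counts in every control library, the leukocyte genes CD3E and PTPRC, the liver gene ALB and the fibroblast gene DCN had at most 3 counts in any, and COL1A1 was detected.

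The second total RNA library and the first nuclear library of the IGF2BP1 knockout hold identical values: both sum to 21232940 counts, and 0 of 62703 identifiers differ. This library correlated at 0.994 with the other nuclear library of that knockout and at 0.988 with the other total library. The IGF2BP1 knockout is therefore described from cytoplasmic RNA first, and its total and nuclear results are given with and without this library. The batch 5 libraries also stood apart: 7 of the 10 genes differed between batch 5 and batches 3 and 4 within the IGF2BP3 knockout, beside 61.1% of all genes tested. The batch term of the fit absorbs that difference, so the IGF2BP3 changes below rest on batches 3 and 4.

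Of the 10 genes, 5 carry a match to the seed of the let-7 microRNAs in the longest annotated 3′UTR, and these sites are shown because let-7 is known to repress CCND2 and CDK6 and because IGF2BP proteins have been described as shielding let-7 targets. RefSeq lists 11 human miRNAs with the same seed, bases 2 to 8, in capitals in this one:
hsa-let-7a-5p: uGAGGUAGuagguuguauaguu

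The 3′UTRs in GENCODE 29 (GRCh38) were searched on the transcript strand for CTACCTC, which pairs with bases 2 to 8, and for TACCTCA, which pairs with bases 2 to 7 followed by an A; overlapping matches of both counted as 1 site. The sites are printed 5′ to 3′ on the transcript strand, with the match in capitals:
CCND1 site 1 (chr11:69653485-69653513, plus strand): ctgtttcacaaTACCTCAtgcttcactta
CCND1 site 2 (chr11:69654144-69654172, plus strand): cggctcacgctTACCTCAaccatcctggc
CCND2 site 1 (chr12:4301981-4302009, plus strand): ggagtattcttTACCTCAggtttactgga
CCND2 site 2 (chr12:4302048-4302076, plus strand): tgttttcataaTACCTCAcaaccgtacag
CCND2 site 3 (chr12:4304911-4304939, plus strand): cttatatcatgTACCTCAgatctctctct
CDK6 site 1 (chr7:92614269-92614297, minus strand): tttagggagtgTACCTCAgatagatttta
CDKN1A site 1 (chr6:36686732-36686760, plus strand): gcaccctagttCTACCTCAggcagctcaa
RB1 site 1 (chr13:48480746-48480774, plus strand): aacagatttcaTACCTCAgaatgtaaaag

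CCND2 had the most, 3 sites in 5341 bases of 3′UTR, and CCND1 had 2 in 3192 bases. Long 3′UTRs often hold such a match: among genes with a 3′UTR of 80% to 125% of the length of the gene in question, 42.5% had a match at the length of CCND2, 26.7% at that of CCND1, 67% at that of CDK6, 16.6% at that of CDKN1A and 18.7% at that of RB1. CCND3, CDK4, CDKN1B, CDKN1C and CDKN2C had none. MicroRNA levels were not measured, and a match is a description of the letters only. The genes with a match did not share a direction: in cytoplasmic RNA of the IGF2BP1 knockout CCND1 and CCND2 fell, CDK6 and RB1 rose, and CDKN1A was not called, with the values below.

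In cytoplasmic RNA of the control, CDK4 was the most abundant of the 10. Levels between genes are compared as CPM per kilobase (kb) of merged GENCODE 29 exon. CDK4 had 109.5 ± 4.67 CPM per kb (SD, n = 4), and CDKN2C followed at 14.8 ± 0.672. CDKN1B at 11.9 ± 0.617, RB1 at 11.6 ± 0.203, CCND3 at 11.4 ± 1.04 and CCND2 at 11.01 ± 0.806 CPM per kb (SD, n = 4 each) did not differ from their neighbours in this order beyond their spread. CDKN1A stood at 9.83 ± 0.714, CCND1 at 7.62 ± 1.25 and CDK6 at 4.84 ± 0.822 CPM per kb (SD, n = 4 each). CDKN1C, at 0.930 ± 0.0373 CPM per kb, was the lowest and rested on 37 to 46 counts per control library. The order depends on the length used: CCND3 has 5.80 kb of merged exon and 2.39 kb in its longest coding transcript.

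That order differed between genotypes. In the IGF2BP2 knockout CDKN1A was second, at 32.8 ± 0.313 CPM per kb (SD, n = 2). In the IGF2BP3 knockout CDKN2C, CDKN1A and CDKN1B followed CDK4, at 28.6 ± 0.956, 26.5 ± 5.90 and 23.8 ± 2.63 CPM per kb (SD, n = 4 each), with CDKN1A above CDKN2C in batches 3 and 4 and below it in batch 5. CDK6, at 2.95 ± 0.216, was as low as CDKN1C, at 3.06 ± 0.260. In the IGF2BP1 knockout CCND2 was second lowest, at 2.68 ± 0.205 CPM per kb (SD, n = 2).

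Most of the 10 genes changed in each knockout, and so did much of the transcriptome. A gene is called changed at a Benjamini-Hochberg adjusted p under 0.05 over all genes in edgeR's quasi-likelihood test. In cytoplasmic RNA the test called 9 of 10 in the IGF2BP1 knockout, 5 higher and 4 lower, beside 44.4% of all genes tested (22.5% higher, 21.9% lower). The IGF2BP2 knockout had 8, with 6 higher and 2 lower, beside 64.2% of genes (30.9% higher, 33.2% lower). The IGF2BP3 knockout had 9, with 5 higher and 4 lower, beside 64.7% of genes (31.5% higher, 33.2% lower). In nuclear RNA the counts were 6 beside 25.7%, 8 beside 49.7% and 9 beside 50.4%, in the same order of knockouts. In total RNA they were 6 beside 24.2%, 6 beside 47% and 9 beside 46.9%. Without the shared library the IGF2BP1 counts were 7 in nuclear and 8 in total RNA. The IGF2BP2 and IGF2BP3 knockouts are set against the same control libraries.

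**Figure D1:**
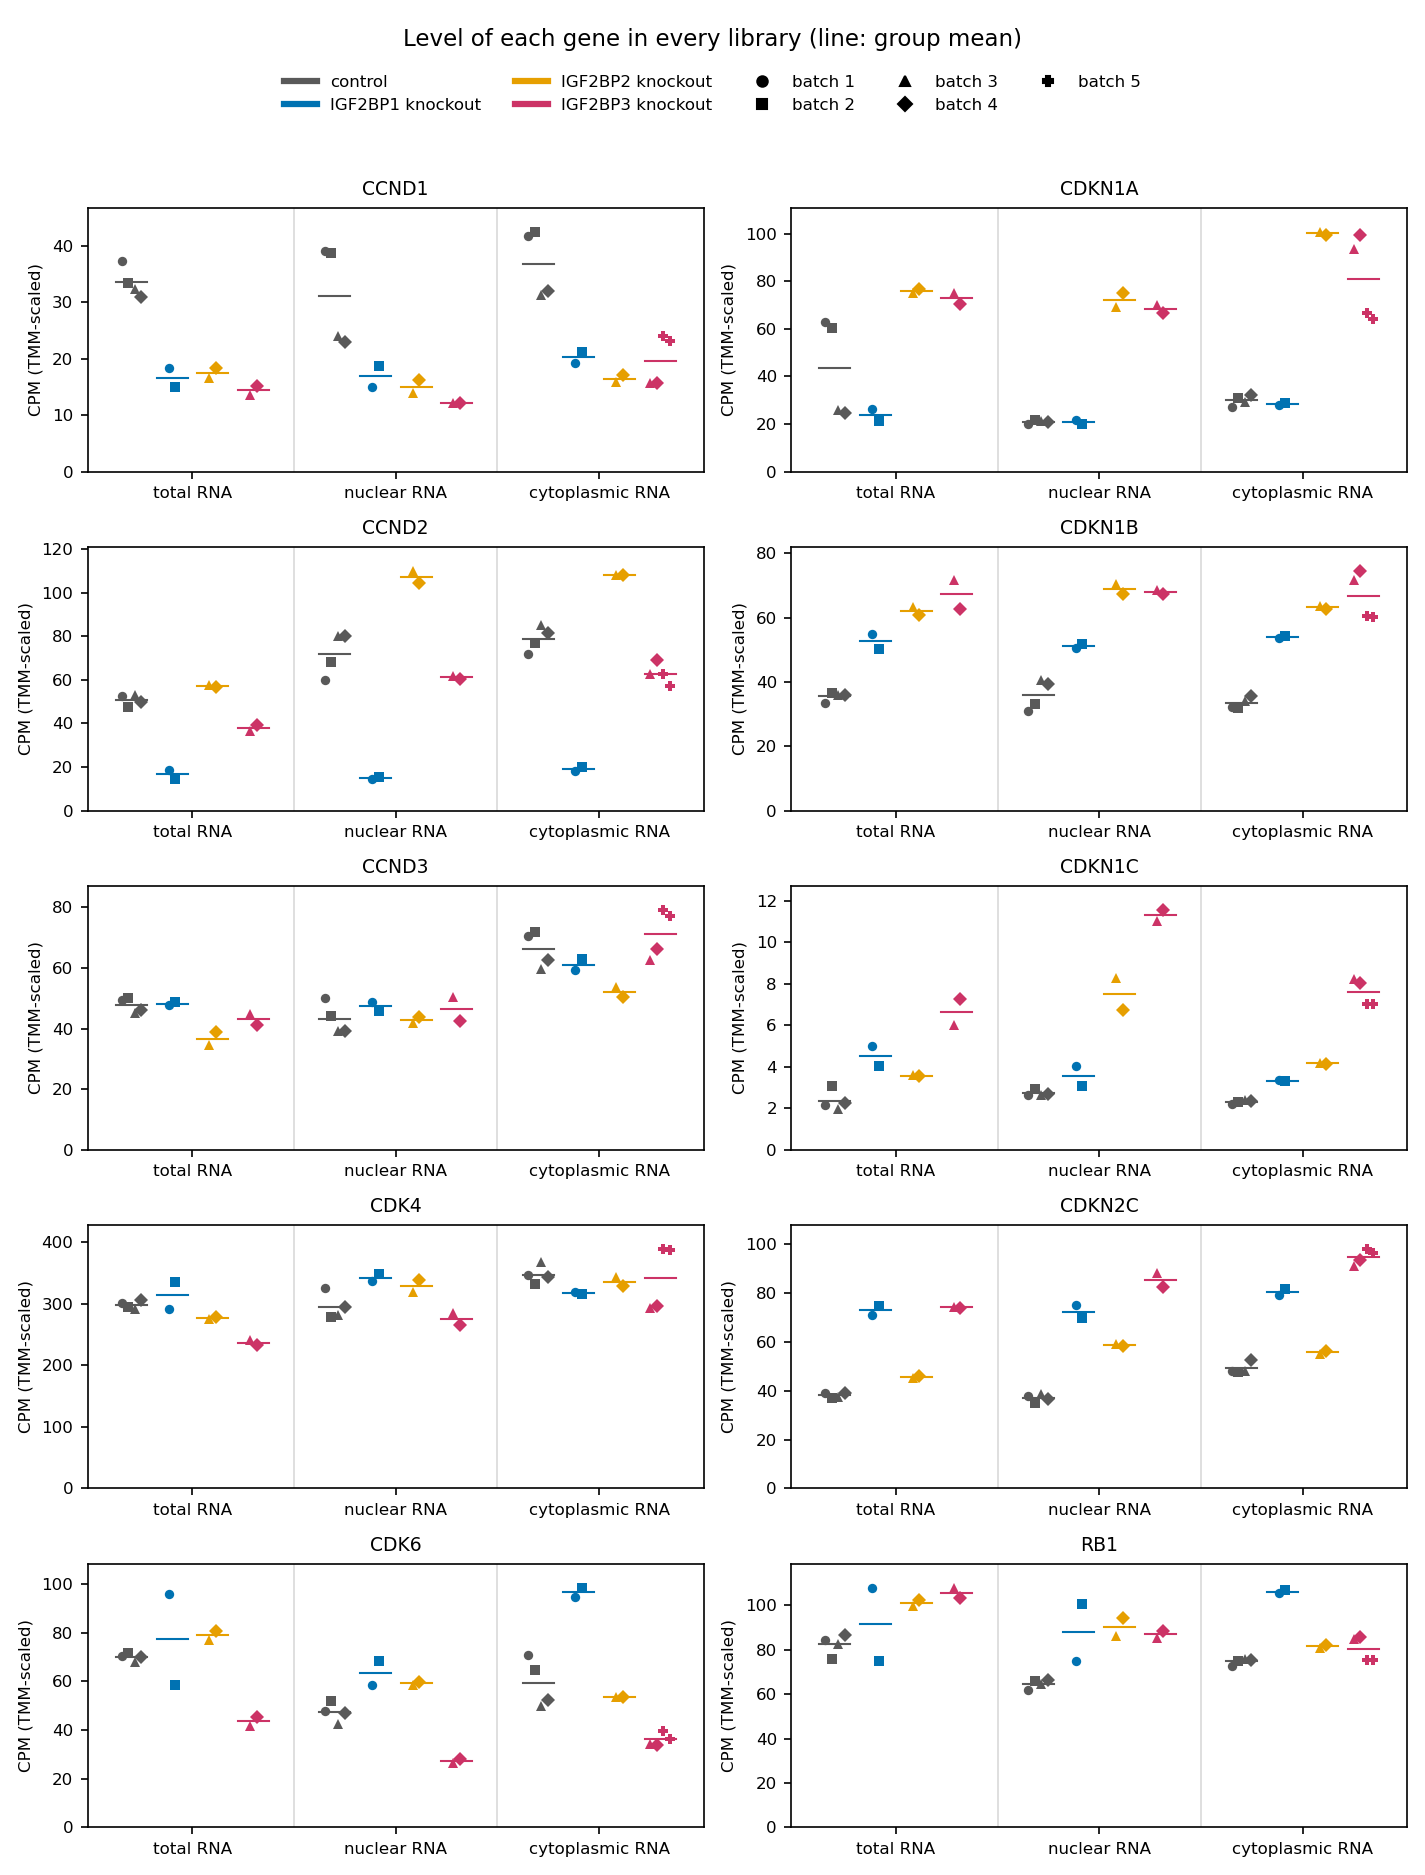
TMM-scaled CPM (vertical axes) of the 10 genes in every library of total, nuclear and cytoplasmic RNA, by genotype; colours give the genotype, symbols the batch, lines the group mean, and each axis starts at 0. CCND1 is lower in every knockout library than in every control library of the same RNA kind, and CCND2 is lowest in the IGF2BP1 knockout.

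Calls shared by the 3 knockouts were lower for 1 cyclin and higher for inhibitors and RB1. CCND1 was lower in all 3 knockouts in each RNA kind. Such calls covered 2.88% of the genes tested in total, 4.38% in nuclear and 10.3% in cytoplasmic RNA. In cytoplasmic RNA 1 of 10 genes is therefore near the share of all genes. CDKN1B and CDKN2C were higher in all 3 knockouts in each RNA kind, CDKN1C in total and cytoplasmic RNA, and RB1 in nuclear and cytoplasmic RNA. Calls of that kind covered 2.82% of genes in total, 4.27% in nuclear and 6.72% in cytoplasmic RNA. Within a knockout, calls higher in all 3 RNA kinds were CDKN1B and CDKN2C in the IGF2BP1 knockout beside 4.22% of genes, these with CDKN1A and CDKN1C in the IGF2BP2 knockout beside 15.8%, and these 4 with RB1 in the IGF2BP3 knockout beside 17.1%. Calls lower in all 3 kinds were CCND1 and CCND2 beside 6.6%, CCND1 beside 16.2%, and CCND1, CCND2 and CDK6 beside 18%.

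**Figure D2:**
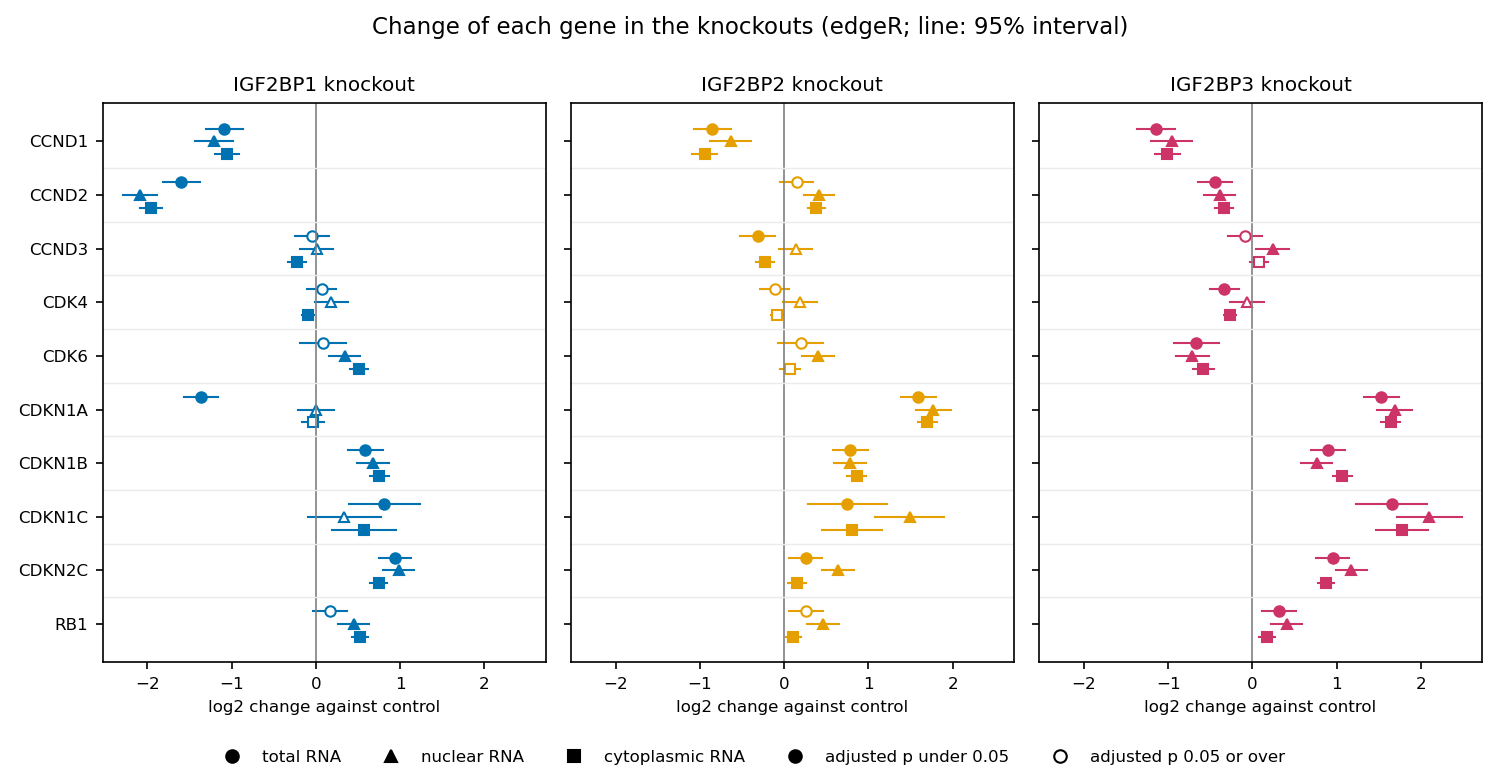
Log2 change against the control of the 10 genes in the 3 knockouts; circles are total, triangles nuclear and squares cytoplasmic RNA, lines are 95% intervals from the edgeR fit, and filled symbols have an adjusted p under 0.05. CCND1 lies below 0 and CDKN1B and CDKN2C lie above 0 in the 9 comparisons.

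CCND1 (ENSG00000110092, chr11:69641087-69654474, plus strand in GENCODE 29 on GRCh38, as are the positions below) encodes cyclin D1, which links growth signals to CDK4 and CDK6. In cytoplasmic RNA its level was 41.6, 42.4, 31.2 and 31.97 CPM in the control libraries of batches 1 to 4, 19.2 and 21.2 CPM in the IGF2BP1 knockout and 15.8 and 17.1 CPM in the IGF2BP2 knockout. The IGF2BP3 knockout had 15.7 and 15.7 CPM in batches 3 and 4 and 24 and 23.1 CPM in batch 5. Every knockout library lay below every control library. In bulk RNA, fewer cells with a transcript and less of it per cell cannot be told apart. The log2 changes were -1.06 (SE 0.071) in the IGF2BP1 knockout, -0.94 (SE 0.076) in the IGF2BP2 knockout and -1.01 (SE 0.075) in the IGF2BP3 knockout, with edgeR adjusted p of 2.56e-14, 5.72e-13 and 8.88e-14.

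CCND1 also fell in the other RNA kinds. In nuclear RNA the log2 changes were -1.21 (SE 0.11), -0.64 (SE 0.12) and -0.96 (SE 0.12), and in total RNA -1.09 (SE 0.11), -0.86 (SE 0.11) and -1.14 (SE 0.11), in the order IGF2BP1, IGF2BP2, IGF2BP3. Without the shared library the IGF2BP1 values were -1.05 in nuclear and -1.02 in total RNA. The size of the fall did not differ detectably from that in the IGF2BP1 knockout in cytoplasmic RNA: the difference was 0.11 (95% interval -0.09 to 0.32) for the IGF2BP2 knockout and 0.05 (95% interval -0.16 to 0.25) for the IGF2BP3 knockout. In nuclear RNA the change was smaller in the IGF2BP2 knockout by 0.57 (SE 0.17, edgeR adjusted p = 0.00762), with each knockout set against the controls of its own batches and the shared library included. Without the batch term the order turned, with -0.89 in the IGF2BP1 and -1.05 in the IGF2BP2 knockout, whose levels overlapped.

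The controls themselves differed in CCND1 between batches. It was higher in the control of batches 1 and 2 than in that of batches 3 and 4 by 0.71 (SE 0.097, edgeR adjusted p = 1.13e-09) on the log2 scale in nuclear RNA and by 0.40 (SE 0.069, adjusted p = 0.000243) in cytoplasmic RNA. Of the 10 genes, 4 differed between these controls in nuclear RNA beside 28.4% of genes tested, 4 in cytoplasmic RNA beside 28.3%, and 1 in total RNA beside 33.3%. The nuclear controls had 39.1, 38.6, 23.9 and 23.01 CPM, and the knockouts 15.01 and 18.7, 13.9 and 16.3, and 12.1 and 12.2 CPM in the order IGF2BP1, IGF2BP2, IGF2BP3, so the knockouts lay below the lower pair of controls as well.

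CCND2 (ENSG00000118971, chr12:4273772-4305350, plus strand) encodes cyclin D2, and its change in the IGF2BP1 knockout was the largest of the 10 genes there in each RNA kind. Cytoplasmic levels were 71.8, 76.8, 85.2 and 81.3 CPM in the control, 18.1 and 20.2 CPM in the IGF2BP1 knockout and 108 and 108 CPM in the IGF2BP2 knockout. The IGF2BP3 knockout had 62.7, 69.1, 62.5 and 56.97 CPM. The 4 genotypes did not overlap: the IGF2BP1 knockout was lowest, then the IGF2BP3 knockout, then the control, and the IGF2BP2 knockout was highest. The level in the IGF2BP1 knockout was 0.258 of the control, a log2 change of -1.96 (SE 0.067, edgeR adjusted p = 5.83e-22), against 0.38 (SE 0.052, adjusted p = 8.78e-08) in the IGF2BP2 knockout and -0.34 (SE 0.054, adjusted p = 1.72e-06) in the IGF2BP3 knockout. The changes differed from that of the IGF2BP1 knockout by 2.34 (SE 0.086, adjusted p = 4.96e-21) and 1.62 (SE 0.087, adjusted p = 9.64e-17) by the same edgeR test.

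In nuclear RNA CCND2 moved in the same directions, with changes of -2.09 (SE 0.10), 0.42 (SE 0.091) and -0.39 (SE 0.092) on the log2 scale in the IGF2BP1, IGF2BP2 and IGF2BP3 knockouts. The nuclear control libraries had 60.02, 67.96, 80.2 and 80.04 CPM, the IGF2BP1 knockout 14.7 and 15.3 CPM, the IGF2BP2 knockout 110.0 and 104 CPM, and the IGF2BP3 knockout 61.8 and 60.6 CPM. The IGF2BP3 knockout overlapped the control of batch 1 here and lay below the controls of its own batches; without the batch term its value was -0.24 (adjusted p = 0.0794). In total RNA the changes were -1.60 (SE 0.11) in the IGF2BP1 knockout and -0.45 (SE 0.10) in the IGF2BP3 knockout, and the IGF2BP2 knockout, at 0.15 (95% interval -0.05 to 0.35), was not called. Without the shared library the IGF2BP1 values were -2.15 in nuclear and -1.49 in total RNA. The IGF2BP3 call in total RNA was lost without control replicate 3 (edgeR adjusted p = 0.0786) or knockout replicate 1 (0.103).

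CCND3 (ENSG00000112576, chr6:41934933-42050357, minus strand), cyclin D3, changed least of the 3 cyclins in cytoplasmic RNA. Its cytoplasmic levels were 70.7, 71.9, 59.6 and 62.5 CPM in the control, 59.4 and 62.9 CPM in the IGF2BP1 knockout, 53.8 and 50.3 CPM in the IGF2BP2 knockout and 62.8, 66.2, 79.2 and 77.02 CPM in the IGF2BP3 knockout, batch 5 last. The IGF2BP1 and IGF2BP3 knockouts overlapped the control, and the IGF2BP2 knockout lay below it. The log2 changes were -0.22 (SE 0.053, edgeR adjusted p = 0.000828), -0.23 (SE 0.055, adjusted p = 0.000499) and 0.08 (SE 0.053, adjusted p = 0.203). The calls depended on the scaling: upper-quartile scaling moved the median of all genes by 0.148 and 0.168 in the IGF2BP2 and IGF2BP3 comparisons, and there CCND3 was at -0.08 (adjusted p = 0.195) and 0.25 (adjusted p = 0.000137). Without the batch term the IGF2BP1 value was -0.12 (adjusted p = 0.492). The IGF2BP1 call was lost in edgeR without control replicate 1 (adjusted p = 0.066) or knockout replicate 1 (0.064), and the IGF2BP2 call without knockout replicate 2 (0.0577).

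The other RNA kinds gave CCND3 1 call each. In nuclear RNA it was at 0.01 (SE 0.098), 0.14 (SE 0.10) and 0.24 (SE 0.10, edgeR adjusted p = 0.0387), and in total RNA at -0.05 (SE 0.10), -0.32 (SE 0.10, edgeR adjusted p = 0.0242) and -0.08 (SE 0.10), in the order IGF2BP1, IGF2BP2, IGF2BP3, and only the values with a p were called. The nuclear call was lost with DESeq2 (adjusted p = 0.143), without the batch term (0.436), without the filter on low counts (0.12), in both limma fits of log2 FPKM (0.132 and 0.154), and without control replicate 3 or 4 (0.362 and 0.122) or IGF2BP3 knockout replicate 1 (0.63). The total RNA call was lost with DESeq2 (adjusted p = 0.0567), with upper-quartile scaling (0.106), in limma on log2(FPKM + 1) (0.054), and without control replicate 3 or 4 (0.122 and 0.156) or IGF2BP2 knockout replicate 1 or 2 (0.341 and 0.0795).

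The mix of D-type cyclin RNA differed between genotypes. Summed per kb of merged exon, the 3 cyclins stood at 30.0 ± 1.60 CPM per kb in cytoplasmic RNA of the control (SD, n = 4), 17.4 ± 0.935 in the IGF2BP1 knockout (n = 2), 27.5 ± 0.240 in the IGF2BP2 knockout (n = 2) and 25.1 ± 1.97 in the IGF2BP3 knockout (n = 4). CCND2 was 36.8% of that sum in the control, 15.4% in the IGF2BP1 knockout, 55% in the IGF2BP2 knockout and 35.2% in the IGF2BP3 knockout. CCND1 was 25.3%, 24.1%, 12.4% and 16%, and CCND3 was 37.9%, 60.6%, 32.6% and 48.8%, in the same order. These are group means, not paired by batch, and those of the IGF2BP3 knockout include batch 5. Single control libraries ranged from 32.5% to 41.5% for CCND2 and from 22.6% to 28% for CCND1. Libraries of the IGF2BP3 knockout ranged from 30.6% to 39.7% for CCND2 and from 13.4% to 18.4% for CCND1. Per kb of the longest coding transcript CCND3 was 57.1% in the control and 77% in the IGF2BP1 knockout, so the size of each share depends on the length used.

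**Figure D3:**
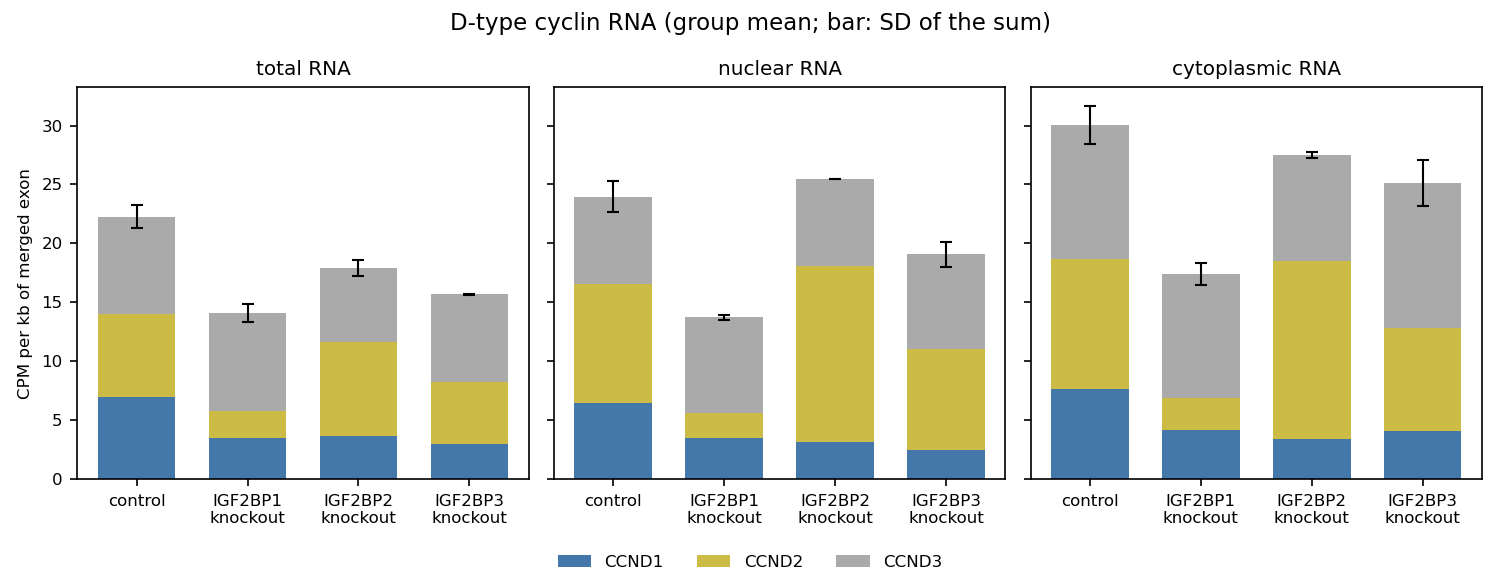
Mean level of CCND1, CCND2 and CCND3, stacked (vertical axis, CPM per kb of merged exon, from 0), by genotype in total, nuclear and cytoplasmic RNA; error bars are the SD of the summed level over 2 to 4 libraries. The cytoplasmic sum is 17.4 CPM per kb in the IGF2BP1 knockout against 30.0 in the control, and CCND2 makes up 55% of it in the IGF2BP2 knockout.

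The kinases behaved differently from each other. CDK4 (ENSG00000135446, chr12:57747727-57756013, minus strand), the more abundant, stayed close to the control: cytoplasmic levels were 346, 331, 367 and 343 CPM in the control, 318 and 316 CPM in the IGF2BP1 knockout and 342 and 328 CPM in the IGF2BP2 knockout. The IGF2BP3 knockout had 293 and 296 CPM in batches 3 and 4 and 389 and 386 CPM in batch 5. The batch 5 libraries lay above every control and those of batches 3 and 4 below every control. On the log2 scale the changes were -0.09 (SE 0.037, edgeR adjusted p = 0.0394), -0.08 (SE 0.037, adjusted p = 0.0531) and -0.27 (SE 0.037, adjusted p = 1.04e-07). With upper-quartile scaling the IGF2BP2 value was 0.07 (adjusted p = 0.108) and the IGF2BP3 value -0.10 (adjusted p = 0.0163), and without the batch term the IGF2BP1 value was -0.13 (adjusted p = 0.48) and the IGF2BP3 value -0.02 (adjusted p = 0.849). The small IGF2BP1 change of CDK4 also lost its call in edgeR without either control of its batches (adjusted p = 0.443 and 0.158 for replicates 1 and 2), without either knockout library (0.417 and 0.109) and without IGF2BP3 knockout replicate 3 or 4 (0.0605 and 0.0635).

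In nuclear RNA CDK4 was not called in any knockout, at 0.18, 0.19 and -0.07, and the IGF2BP1 value without the shared library was 0.32 (adjusted p = 0.0302) by edgeR. In total RNA the IGF2BP3 knockout was called, at -0.33 (SE 0.088, edgeR adjusted p = 0.00733), and with upper-quartile scaling it was at -0.20 (adjusted p = 0.0839). That call was lost without control replicate 4 (edgeR adjusted p = 0.119) and without knockout replicate 1 or 2 (0.0565 and 0.15).

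CDK6 (ENSG00000105810, chr7:92604921-92836594, minus strand), which pairs with the same cyclins, moved in opposite directions in the IGF2BP1 and IGF2BP3 knockouts. Its cytoplasmic levels were 70.9, 64.6, 49.7 and 52.4 CPM in the control, 94.7 and 98.5 CPM in the IGF2BP1 knockout, 53.6 and 53.7 CPM in the IGF2BP2 knockout and 34.3, 33.98, 39.8 and 36.4 CPM in the IGF2BP3 knockout. The IGF2BP1 knockout lay above every control and the IGF2BP3 knockout below every control, and the IGF2BP2 knockout overlapped the control. The log2 changes were 0.51 (SE 0.053, edgeR adjusted p = 8.84e-10), 0.07 (SE 0.059, adjusted p = 0.295) and -0.58 (SE 0.062, adjusted p = 5.93e-10), and with upper-quartile scaling the IGF2BP2 value was 0.22 (adjusted p = 0.00152). The IGF2BP3 change was below the IGF2BP1 change, with a difference of -1.09 (SE 0.082, edgeR adjusted p = 3.02e-13). The control of batches 1 and 2 was above that of batches 3 and 4 by 0.39 (SE 0.061, edgeR adjusted p = 8.53e-05), so these 2 changes are set against different control levels.

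In nuclear RNA CDK6 was at 0.34 (SE 0.094, edgeR adjusted p = 0.00474) in the IGF2BP1 knockout, 0.40 (SE 0.096, adjusted p = 0.00048) in the IGF2BP2 knockout and -0.71 (SE 0.10, adjusted p = 6.09e-08) in the IGF2BP3 knockout. In total RNA the IGF2BP3 knockout was at -0.66 (SE 0.14, edgeR adjusted p = 0.00161). The total RNA value of the IGF2BP1 knockout depended on the shared library: its libraries had 95.99 and 58.5 CPM, the second being that library, against 67.8 to 71.5 CPM in the control. The log2 change was 0.08 (SE 0.14, edgeR adjusted p = 0.702) with it and 0.45 (adjusted p = 0.000334) without it. The nuclear IGF2BP1 call was lost without control or knockout replicate 2 (edgeR adjusted p = 0.0806 and 0.0829), and the nuclear IGF2BP2 call without control replicate 3 (0.0563).

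CDKN1A (ENSG00000124762, chr6:36676460-36687339, plus strand), p21, was high in the IGF2BP2 and IGF2BP3 knockouts and near the control in the IGF2BP1 knockout, outside total RNA. In cytoplasmic RNA the control had 27.3, 30.9, 29.4 and 32.3 CPM and the IGF2BP1 knockout 27.9 and 28.9 CPM. The IGF2BP2 knockout had 101 and 99.3 CPM, and the IGF2BP3 knockout 93.3 and 99.4 CPM in batches 3 and 4 and 66.8 and 64.3 CPM in batch 5. The IGF2BP1 knockout overlapped the control, and the other knockouts lay above every control library, batch 5 included. The level was 3.24 times the control in the IGF2BP2 knockout, a log2 change of 1.70 (SE 0.058, edgeR adjusted p = 7.03e-23), and 3.12 times in the IGF2BP3 knockout, a log2 change of 1.64 (SE 0.058, adjusted p = 1.92e-22). The IGF2BP1 value was -0.04 (95% interval -0.17 to 0.10).

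Nuclear RNA gave the same picture, with 19.9, 21.7, 21.3 and 20.98 CPM in the control and log2 changes of 0.00 (95% interval -0.21 to 0.21), 1.77 (SE 0.10) and 1.69 (SE 0.10) in the IGF2BP1, IGF2BP2 and IGF2BP3 knockouts. The IGF2BP2 and IGF2BP3 changes exceeded the IGF2BP1 change in cytoplasmic RNA by 1.73 (SE 0.091, edgeR adjusted p = 4.17e-17) and 1.68 (SE 0.091, adjusted p = 1.02e-16). The IGF2BP3 and IGF2BP2 knockouts did not differ detectably from each other, at -0.05 (95% interval -0.14 to 0.04) in cytoplasmic and -0.08 (95% interval -0.27 to 0.10) in nuclear RNA.

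In total RNA the CDKN1A value of the IGF2BP1 knockout depended on which control was used. The total control had 62.9 and 60.2 CPM in batches 1 and 2 and 25.9 and 24.6 CPM in batches 3 and 4, and the IGF2BP1 knockout had 26.5 and 21.5 CPM. The IGF2BP2 knockout had 75.1 and 76.8 CPM and the IGF2BP3 knockout 75.2 and 70.6 CPM, above every control. The early controls were 2.42 times the late ones, a log2 difference of 1.27 (SE 0.068, edgeR adjusted p = 3.56e-21), while nuclear and cytoplasmic RNA gave -0.04 (SE 0.11) and -0.10 (SE 0.083). Against its own batches the IGF2BP1 knockout was at -1.36 (SE 0.10, edgeR adjusted p = 3.64e-06), and without the shared library at -1.24 (adjusted p = 1.5e-10). With the early total controls left out and no batch term it was at -0.06 (adjusted p = 0.774), and with all libraries and no batch term at -0.86 (adjusted p = 0.079). The IGF2BP2 and IGF2BP3 changes in total RNA were 1.59 (SE 0.10) and 1.53 (SE 0.10), and 0.80 (adjusted p = 0.0369) and 0.75 (adjusted p = 0.0504) with no batch term.

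**Figure D4:**
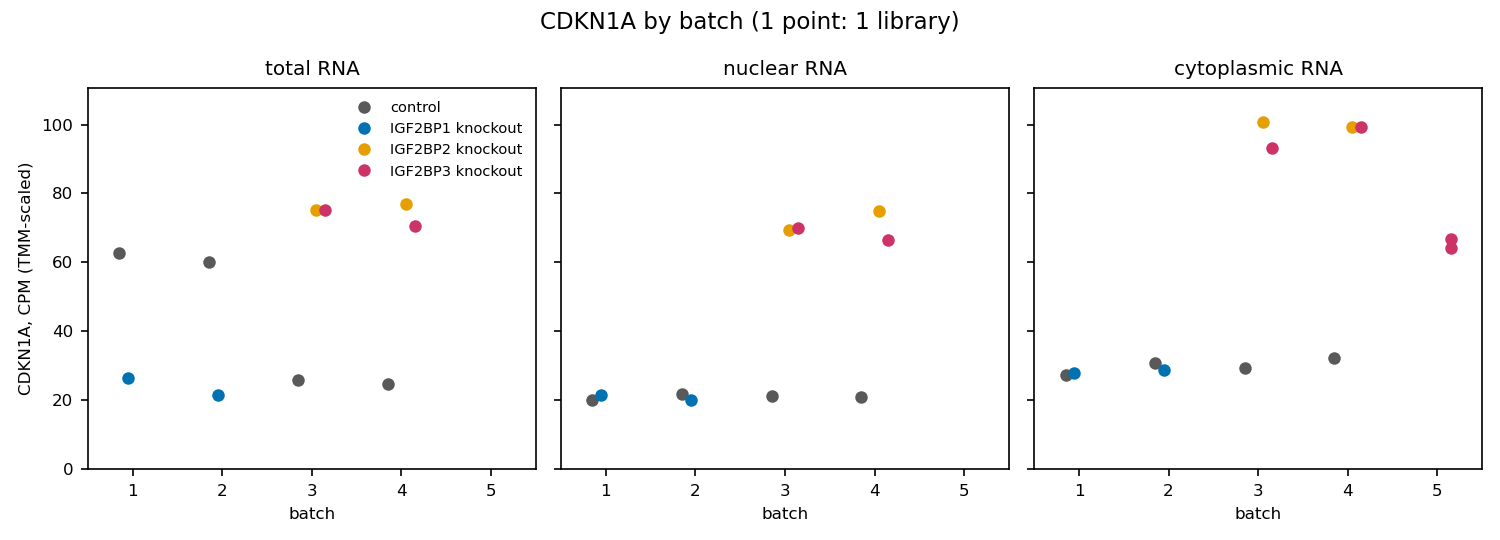
TMM-scaled CPM of CDKN1A (vertical axis, from 0) by batch (horizontal axis) in total, nuclear and cytoplasmic RNA; a point is a library and colours give the genotype. The total control is at 60.2 to 62.9 CPM in batches 1 and 2 and at 24.6 to 25.9 CPM in batches 3 and 4, while the control spans 19.9 to 21.7 CPM in nuclear and 27.3 to 32.3 CPM in cytoplasmic RNA.

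Other p53 target genes moved with CDKN1A between those total controls. Of a list of 20, 17 were higher and 1 lower in the total control of batches 1 and 2 than in that of batches 3 and 4, with a median log2 difference of 0.45 against -0.01 over all genes. In nuclear RNA 2 were higher and 3 lower, and in cytoplasmic RNA 3 and 3. Of all genes tested 33.3%, 28.4% and 28.3% were called between these controls in total, nuclear and cytoplasmic RNA. In total RNA of the IGF2BP1 knockout 0 of the 20 were higher and 16 lower (median -0.67, all genes 0.00), beside 24.2% of all genes called. The part of these control libraries in that result was not tested. The value with them left out is given above for CDKN1A, and no such value is given for the list.

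In cytoplasmic RNA 11 rose and 7 fell of the same 20 in the IGF2BP2 knockout (median 0.25, all genes 0.01). In the IGF2BP3 knockout 9 rose and 6 fell (median 0.16, all genes 0.03). In the IGF2BP1 knockout 3 rose and 10 fell (median -0.17, all genes 0.01). Of all genes tested 64.2%, 64.7% and 44.4% were called in these comparisons, in the same order. GADD45A, a growth arrest gene, was at 2.14 (SE 0.073) on the log2 scale in the IGF2BP2 knockout and at 0.19 (SE 0.085, edgeR adjusted p = 0.0535) in the IGF2BP3 knockout. BBC3, which promotes cell death, was at 1.59 (SE 0.074) in the IGF2BP2 knockout and at 0.04 (SE 0.085, edgeR adjusted p = 0.691) in the IGF2BP3 knockout. TP53INP1, a stress-response gene, rose by 1.32 (SE 0.096) and 2.03 (SE 0.088), and MDM2, which marks p53 for degradation, by 0.26 (SE 0.043) and 0.29 (SE 0.043) in the IGF2BP2 and IGF2BP3 knockouts. CCNG1, the gene of cyclin G1, fell in all 3 knockouts, at -0.12 (SE 0.037), -0.44 (SE 0.036) and -0.61 (SE 0.037). AEN, a nuclease, and SESN2, a sestrin of the stress response, fell in the IGF2BP1 knockout, at -0.55 (SE 0.046) and -0.38 (SE 0.042), and rose in the IGF2BP2 knockout, by 0.30 (SE 0.044) and 0.68 (SE 0.040). In total RNA of the IGF2BP1 knockout AEN was at -1.14 (SE 0.092). SESN2 was not called there, at 0.18 (SE 0.099, edgeR adjusted p = 0.219).

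CDKN1B (ENSG00000111276, chr12:12715058-12722371, plus strand), p27, rose in every knockout and RNA kind. Its cytoplasmic levels were 32.2, 31.98, 34.04 and 35.7 CPM in the control, 53.7 and 54.5 CPM in the IGF2BP1 knockout, 63.8 and 62.8 CPM in the IGF2BP2 knockout and 71.6, 74.6, 60.6 and 60.3 CPM in the IGF2BP3 knockout, batch 5 last. Every knockout library lay above every control library. The log2 changes were 0.75 (SE 0.059, edgeR adjusted p = 1.1e-12), 0.86 (SE 0.057, adjusted p = 4.75e-15) and 1.07 (SE 0.056, adjusted p = 8.06e-18). The IGF2BP3 knockout exceeded the IGF2BP2 knockout by 0.21 (SE 0.048, edgeR adjusted p = 0.000301), and with no batch term by 0.08 (adjusted p = 0.521); its batch 5 libraries were below those of batches 3 and 4, with a difference of -0.30 (SE 0.045, adjusted p = 5.82e-06).

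In nuclear RNA CDKN1B rose by 0.68 (SE 0.096), 0.78 (SE 0.095) and 0.77 (SE 0.095) on the log2 scale, and in total RNA by 0.59 (SE 0.10), 0.79 (SE 0.10) and 0.90 (SE 0.10), in the order IGF2BP1, IGF2BP2, IGF2BP3. Without the shared library the IGF2BP1 values were 0.65 in nuclear and 0.72 in total RNA. Across the 12 group means its log2 level ran opposite to that of CCND1, with a Pearson correlation of -0.928; the groups share batches and a library, so this is a description.

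CDKN1C (ENSG00000129757, chr11:2883213-2885773, minus strand), p57, is an imprinted gene and was scarce. Cytoplasmic levels were 2.19, 2.28, 2.40 and 2.35 CPM in the control, 3.35 and 3.29 CPM in the IGF2BP1 knockout, 4.18 and 4.14 CPM in the IGF2BP2 knockout and 8.25, 8.04, 7.04 and 7.04 CPM in the IGF2BP3 knockout. The 4 genotypes did not overlap, and their order was the same in nuclear RNA, with 2.62 to 2.91 CPM in the control and 11.04 and 11.6 CPM in the IGF2BP3 knockout. The cytoplasmic log2 changes were 0.57 (SE 0.19, edgeR adjusted p = 0.0153), 0.81 (SE 0.18, adjusted p = 0.000261) and 1.77 (SE 0.16, adjusted p = 9.27e-12); DESeq2 gave the IGF2BP1 change an adjusted p of 0.101. That call was also lost in edgeR without control replicate 1 (adjusted p = 0.141) or 2 (0.0854) and without IGF2BP1 knockout replicate 1 (0.141) or 2 (0.0899). Nuclear RNA gave 0.34 (SE 0.22, edgeR adjusted p = 0.277), 1.49 (SE 0.21, adjusted p = 7.14e-08) and 2.10 (SE 0.20, adjusted p = 2.63e-12). The IGF2BP3 knockout exceeded the IGF2BP2 knockout by 0.97 (SE 0.12, edgeR adjusted p = 3.25e-08) in cytoplasmic RNA.

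In total RNA CDKN1C was at 0.81 (SE 0.22, edgeR adjusted p = 0.0163), 0.75 (SE 0.24, adjusted p = 0.0199) and 1.66 (SE 0.21, adjusted p = 4.44e-05) on the log2 scale. DESeq2 adjusted p for the IGF2BP1 and IGF2BP2 changes were 0.0567 and 0.0713, and without the shared library the IGF2BP1 value was 1.22 in total and 0.07 in nuclear RNA. KCNQ1OT1, an antisense RNA of the same imprinted cluster known to silence CDKN1C on the paternal chromosome, was at 0.33 (SE 0.15, edgeR adjusted p = 0.071), 0.22 (SE 0.20, adjusted p = 0.342) and 1.38 (SE 0.17, adjusted p = 9.21e-09) in cytoplasmic RNA. In nuclear RNA it was at 0.06 (SE 0.14, edgeR adjusted p = 0.817), -1.66 (SE 0.17, adjusted p = 3.87e-11) and -0.33 (SE 0.15, adjusted p = 0.0619), and in total RNA at 0.25 (SE 0.14, edgeR adjusted p = 0.219), -0.72 (SE 0.15, adjusted p = 0.00198) and 0.65 (SE 0.14, adjusted p = 0.00221). It was lower where CDKN1C was higher in nuclear and total RNA of the IGF2BP2 knockout, and both were higher in cytoplasmic and total RNA of the IGF2BP3 knockout. KCNQ1, a potassium channel gene of the cluster, rose by 1.63 (SE 0.25), 0.58 (SE 0.20) and 0.80 (SE 0.20) in cytoplasmic RNA; it overlaps KCNQ1OT1, and the use of strand in the counting is not given in the sources used here. PHLDA2, an imprinted growth regulator of the cluster, was at -1.55 (SE 0.19), -0.43 (SE 0.17) and 0.42 (SE 0.15) in cytoplasmic RNA, lower in the IGF2BP1 and IGF2BP2 knockouts and higher in the IGF2BP3 knockout. In nuclear RNA of the IGF2BP1 knockout KCNQ1 and PHLDA2 were at 1.11 (SE 0.26) and -1.26 (SE 0.23). In its total RNA they were not called, at 0.07 (SE 0.22, edgeR adjusted p = 0.846) and -0.18 (SE 0.25, adjusted p = 0.647). The shared library is included in these values. In edgeR the IGF2BP1 call of CDKN1C in total RNA was lost without control replicate 1 (adjusted p = 0.247) or knockout replicate 1 (0.259), and the IGF2BP2 call without control replicate 3 or 4 (0.134 and 0.11) or knockout replicate 1 or 2 (0.165 and 0.0649).

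CDKN2C (ENSG00000123080, chr1:50960745-50974633, plus strand), p18, rose most in the IGF2BP1 and IGF2BP3 knockouts. Cytoplasmic levels were 48.2, 47.9, 48.1 and 52.5 CPM in the control, 79.2 and 81.7 CPM in the IGF2BP1 knockout, 55.1 and 56.5 CPM in the IGF2BP2 knockout and 91.04, 93.5, 98.2 and 96.3 CPM in the IGF2BP3 knockout. Every knockout library lay above every control. The log2 changes were 0.74 (SE 0.052, edgeR adjusted p = 6.21e-14), 0.15 (SE 0.054, adjusted p = 0.0157) and 0.87 (SE 0.051, adjusted p = 1.27e-16); DESeq2 gave the IGF2BP2 change an adjusted p of 0.0714. The IGF2BP2 change was below the IGF2BP1 change, with a difference of -0.59 (SE 0.075, edgeR adjusted p = 3.72e-08), and the IGF2BP3 change did not differ detectably from the latter, at 0.13 (95% interval -0.01 to 0.27). The IGF2BP2 call was also lost in edgeR without control replicate 3 (adjusted p = 0.117) or knockout replicate 1 (0.125).

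In nuclear RNA CDKN2C rose by 0.98 (SE 0.094), 0.64 (SE 0.096) and 1.17 (SE 0.095) on the log2 scale, in the same order of knockouts. In total RNA it rose by 0.94 (SE 0.097), 0.25 (SE 0.098, edgeR adjusted p = 0.0486) and 0.95 (SE 0.097), and DESeq2 gave the IGF2BP2 change an adjusted p of 0.113. Without the shared library the IGF2BP1 values were 0.99 in nuclear and 0.87 in total RNA. The IGF2BP2 call of CDKN2C in total RNA was also lost in edgeR without control replicate 3 or 4 (adjusted p = 0.308 and 0.187), IGF2BP2 knockout replicate 1 or 2 (0.27 and 0.275) or IGF2BP3 knockout replicate 1 or 2 (0.114 and 0.115).

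RB1 (ENSG00000139687, chr13:48303726-48599436, plus strand), the substrate of the cyclin D kinases, rose by smaller amounts. Its cytoplasmic levels were 72.8, 74.99, 75.7 and 75.4 CPM in the control, 106 and 107 CPM in the IGF2BP1 knockout and 81.01 and 81.98 CPM in the IGF2BP2 knockout. The IGF2BP3 knockout had 84.7 and 85.8 CPM in batches 3 and 4 and 75.5 and 75.2 CPM in batch 5. The IGF2BP1 and IGF2BP2 knockouts lay above every control, and batch 5 overlapped the control. Log2 changes of RB1 were 0.52 (SE 0.046, edgeR adjusted p = 2e-11), 0.11 (SE 0.047, adjusted p = 0.0425) and 0.17 (SE 0.047, adjusted p = 0.00145). Without the batch term the last 2 were 0.13 (adjusted p = 0.172) and 0.10 (adjusted p = 0.172), and DESeq2 gave the IGF2BP2 change an adjusted p of 0.145. The IGF2BP2 call of RB1 was lost in edgeR without control replicate 4 (adjusted p = 0.149), without either library of that knockout (0.14 and 0.177), without either IGF2BP1 knockout library (0.0805 and 0.0796) and without IGF2BP3 knockout replicate 1 or 2 (0.0525 and 0.0521).

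Nuclear RB1 rose by 0.45 (SE 0.095), 0.46 (SE 0.095) and 0.41 (SE 0.095) on the log2 scale in the IGF2BP1, IGF2BP2 and IGF2BP3 knockouts. In total RNA the changes were 0.17 (SE 0.10, edgeR adjusted p = 0.256), 0.26 (SE 0.10, adjusted p = 0.0579) and 0.32 (SE 0.10, adjusted p = 0.0218). The total libraries of the IGF2BP1 knockout had 108 and 74.7 CPM, the second being the shared library, and without it the total change was 0.36 (adjusted p = 0.00363) and the nuclear change 0.61 in edgeR. The nuclear IGF2BP1 call of RB1 was lost without control or knockout replicate 2 (edgeR adjusted p = 0.0824 and 0.0848). The total RNA call in the IGF2BP3 knockout was lost without control replicate 3 or 4 (edgeR adjusted p = 0.216 and 0.107), without either IGF2BP3 knockout library (0.258 and 0.101) and without either IGF2BP2 knockout library (0.0643 and 0.0635).

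The fractions show how the RNA of these genes was distributed between nucleus and cytoplasm. In the control 8 of the 10 had lower TMM-scaled levels in nuclear than in cytoplasmic RNA, beside 65.9% of genes called in either direction and 33.3% called lower. CCND3 had the largest difference, at -0.71 (SE 0.064) on the log2 scale, followed by CDKN1A at -0.60 (SE 0.073), and CDKN1B and CDKN1C, at 0.01 (SE 0.071) and 0.15 (SE 0.17), were not called. These are relative levels within each fraction, not amounts per cell.

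Between genotypes, the nuclear to cytoplasmic ratio differed from the control for 0 of 10 genes in the IGF2BP1 knockout beside 2.99% of all genes (1 without the shared library, CDK4), 3 in the IGF2BP2 knockout beside 18%, and 1 in the IGF2BP3 knockout beside 10.2%. At an unadjusted p under 0.05 edgeR had 3 of 10 in the IGF2BP1 knockout (CDK4, CDKN2C and CCND3). The share of all genes at that looser threshold is not given here, and the 2.99% is at the adjusted one, so this count shows no excess. DESeq2 called 0 of the 10 in that knockout after adjustment. The IGF2BP2 calls were CDKN2C at 0.45 (SE 0.10, edgeR adjusted p = 0.00264), CCND3 at 0.33 (SE 0.11, adjusted p = 0.0416) and RB1 at 0.31 (SE 0.10, adjusted p = 0.0356), and the IGF2BP3 call was CDKN1B at -0.36 (SE 0.10, adjusted p = 0.019). CCND2 in the IGF2BP1 knockout and CDKN1A in the IGF2BP2 and IGF2BP3 knockouts had ratio changes of -0.12 (SE 0.12), 0.03 (SE 0.11) and -0.02 (SE 0.12), which were not called. The CDKN2C call held when each library was left out in turn, with edgeR adjusted p up to 0.0357. Those of CCND3 and RB1 were each lost when any of 13 single libraries was left out, with edgeR adjusted p up to 0.302 and 0.174, and that of CDKN1B with any of 10, up to 0.187.

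The IGF2BP2 and IGF2BP3 knockouts were in the same batches and were compared directly. In cytoplasmic RNA 7 of 10 genes differed beside 62.7% of genes tested, in nuclear RNA 6 beside 48.2% and in total RNA 4 beside 43.3%. Of the nuclear calls, CCND1 at -0.32 (edgeR adjusted p = 0.0345) and CDK4 at -0.25 (edgeR adjusted p = 0.0371) were each lost in 9 of 15 alternative fits. DESeq2, upper-quartile scaling and the fit without the batch term each called 4 in nuclear RNA. DESeq2 gave the nuclear CDKN1C difference an adjusted p of 0.0616. CCND2 and CDK6 were lower and CDKN1C and CDKN2C higher in the IGF2BP3 knockout in each RNA kind. In cytoplasmic RNA these differences were -0.71 (SE 0.050) for CCND2, -0.65 (SE 0.058) for CDK6, 0.97 (SE 0.12) for CDKN1C and 0.72 (SE 0.047) for CDKN2C on the log2 scale. Set against the IGF2BP1 change in cytoplasmic RNA, 5 of 10 genes differed in the IGF2BP2 knockout beside 48.4% of genes, and 8 in the IGF2BP3 knockout beside 51.3%. In nuclear RNA these counts were 5 beside 28.1% and 4 beside 34.7%, and in total RNA 3 beside 33.3% and 4 beside 34.4%. The CDKN1C call was lost without IGF2BP2 or IGF2BP3 knockout replicate 2 in nuclear RNA (edgeR adjusted p = 0.199 and 0.135) and in total RNA (0.0913 and 0.0581).

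The wider G1/S machinery moved in both directions. Of 27 other regulators of this step, in cytoplasmic RNA 10 rose and 4 fell in the IGF2BP1 knockout (median log2 change 0.08, all genes 0.01), 11 rose and 12 fell in the IGF2BP2 knockout (median -0.05, all genes 0.01) and 7 rose and 12 fell in the IGF2BP3 knockout (median -0.10, all genes 0.03). These are 14, 23 and 19 of 27 called, beside 44.4%, 64.2% and 64.7% of all genes, so the share in the IGF2BP1 and IGF2BP3 knockouts was near that of all genes. CDKN2B (p15), an INK4 inhibitor like CDKN2C, rose by 0.30 (SE 0.091), 0.90 (SE 0.092) and 2.29 (SE 0.079) on the log2 scale. Its mean level was 11.3 ± 1.39 CPM in the control (SD, n = 4) and 51.4 ± 1.82 CPM in the IGF2BP3 knockout (n = 4). These means are not paired by batch, and that of the knockout includes the batch that held no control. CDKN2A, the gene of p16 and p14ARF, fell, at -0.39 (SE 0.042) and -0.59 (SE 0.043) in the IGF2BP1 and IGF2BP2 knockouts. Cyclin E activates CDK2 after the D-type cyclins. In the IGF2BP1 knockout CCNE1 was not called, at -0.01 (SE 0.065), and CCNE2 was called, at 0.57 (SE 0.077). CCNE1 was at -0.75 (SE 0.072) and -0.78 (SE 0.072) in the IGF2BP2 and IGF2BP3 knockouts, for which no CCNE2 value is given here. E2F1 rose by 0.28 (SE 0.048) and 0.49 (SE 0.047) and E2F2 by 0.80 (SE 0.056) and 0.33 (SE 0.057) in the IGF2BP2 and IGF2BP3 knockouts, and E2F4, which acts mostly as a repressor, fell, at -0.70 (SE 0.046) in the IGF2BP3 knockout.

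Replication genes that E2F factors control were mostly lower in cytoplasmic RNA. Of 20, in cytoplasmic RNA 2 rose and 11 fell in the IGF2BP1 knockout (median -0.11). In the IGF2BP2 knockout 2 rose and 16 fell (median -0.29), and in the IGF2BP3 knockout 2 rose and 17 fell (median -0.67). Of all genes tested 22.5%, 30.9% and 31.5% were called higher and 21.9%, 33.2% and 33.2% lower, in the same order of knockouts. The medians of all genes were 0.011, 0.013 and 0.025. In nuclear RNA 4 rose and 7 fell in the IGF2BP2 knockout with a median of 0.07, so there the median and the counts differed in sign, and 2 rose and 11 fell in the IGF2BP3 knockout (median -0.26). In the IGF2BP1 knockout 1 rose and 3 fell in nuclear RNA (median -0.09), beside 25.7% of all genes called. In its total RNA 3 rose and 2 fell (median 0.05), beside 24.2%. These shares of the list were near those of all genes. In total RNA 11 fell and 1 rose when IGF2BP2 was knocked out, and 13 fell and 0 rose when IGF2BP3 was. Of all genes, 49.7% and 50.4% were called in nuclear and 47% and 46.9% in total RNA of these 2 knockouts. MCM6, a subunit of the replicative helicase, had a log2 change of -1.31 (SE 0.046) in cytoplasmic RNA of the IGF2BP3 knockout. Its mean level there was 131 ± 20.2 CPM (SD, n = 4), against 285 ± 9.44 CPM in the control (n = 4). These means are not paired by batch. That of the knockout includes the libraries of the batch that held no control, on which the change does not rest. RRM1, a subunit of ribonucleotide reductase, fell, at -0.96 (SE 0.040) in the IGF2BP2 knockout, and DNMT1, the maintenance DNA methyltransferase, at -1.08 (SE 0.040) in the IGF2BP3 knockout. In the IGF2BP1 knockout CDC6, which licenses replication origins, fell, at -0.38 (SE 0.045) and MYBL2, a transcription factor of the cycle, rose by 0.37 (SE 0.039). In total RNA of that knockout MYBL2 was at 0.25 (SE 0.082), and CDC6 was not called, at -0.12 (SE 0.090, edgeR adjusted p = 0.353).

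Genes of mitosis and of cyclin and inhibitor turnover were described from 2 further lists in cytoplasmic RNA. Of 17 mitotic genes 5 rose and 4 fell in the IGF2BP1 knockout, 0 rose and 12 fell in the IGF2BP2 knockout and 3 rose and 9 fell in the IGF2BP3 knockout (medians -0.02, -0.29 and -0.12). Counted in either direction, the 9, 12 and 12 called are shares near those of all genes in cytoplasmic RNA. By direction 22.5%, 30.9% and 31.5% of all genes were called higher and 21.9%, 33.2% and 33.2% lower. The calls of the IGF2BP2 knockout were all lower and so did not follow that even split. In nuclear RNA 3 rose and 1 fell, 3 rose and 5 fell, and 6 rose and 4 fell in the same order (medians 0.08, -0.10 and 0.12), so the IGF2BP3 median was of the opposite sign there. AURKB, a kinase of chromosome segregation, fell, at -0.93 (SE 0.045) in the IGF2BP1 knockout, CCNB1 (cyclin B1) at -0.69 (SE 0.040) in the IGF2BP2 knockout, and BUB1, of the spindle checkpoint, at -1.03 (SE 0.051) in the IGF2BP3 knockout. Of 16 turnover genes 7 rose and 4 fell, 2 rose and 13 fell, and 1 rose and 12 fell in the same order (medians 0.03, -0.31 and -0.44). The shares of all genes called in these comparisons were 44.4%, 64.2% and 64.7% in either direction, and by direction those given above beside the mitotic genes. DDB1, an adaptor of the CUL4 ubiquitin ligases that degrade p21, fell, at -1.30 (SE 0.038) and the chaperone HSP90AA1 at -0.99 (SE 0.036) in the IGF2BP2 knockout. CDC37, the HSP90 partner that loads CDK4, fell, at -0.94 (SE 0.037) in the IGF2BP3 knockout, and GSK3B, a kinase that marks cyclin D1 for degradation, rose by 0.46 (SE 0.045) in the IGF2BP1 knockout. GSK3B was at 0.31 (SE 0.097) in nuclear RNA of that knockout. It was not called in its total RNA, at -0.19 (SE 0.14, edgeR adjusted p = 0.356).

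Some changes went along with those of chromosomal neighbours, and in single clones a gain or loss of a chromosome segment and a change of regulation cannot be told apart from RNA alone. Beside the cytoplasmic counts that follow, 44.4%, 64.2% and 64.7% of all genes were called in the IGF2BP1, IGF2BP2 and IGF2BP3 knockouts. Within 1 Mb of CCND1, 15 genes were tested in cytoplasmic RNA. Of these, 1 rose and 11 fell in the IGF2BP2 knockout (median log2 change -0.67). The medians were -0.13 and 0.00 in the IGF2BP1 and IGF2BP3 knockouts. Around CDK6, 8 of 15 neighbours rose and 0 fell in the IGF2BP1 knockout (median 0.32), and 2 rose and 10 fell in the IGF2BP3 knockout (median -0.40), the directions of CDK6 itself. In nuclear RNA of the IGF2BP1 knockout 2 of 16 CDK6 neighbours were higher and 0 lower (median 0.06), beside 25.7% of all genes called. In its total RNA 1 was higher and 1 lower of 15 (median 0.18), beside 24.2%. In nuclear RNA of the IGF2BP3 knockout 1 was higher and 9 lower of 16 (median -0.47), beside 50.4%. In its total RNA 2 were higher and 8 lower of 15 (median -0.42), beside 46.9%. In cytoplasmic RNA of the IGF2BP2 knockout 9 of these 15 fell and 2 rose (median -0.33), and CDK6 was not called.

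Around CDKN1C 10 of 21 neighbours rose and 4 fell in the IGF2BP3 knockout (median 0.41), and 3 rose and 12 fell in the IGF2BP2 knockout (median -0.43), where CDKN1C itself rose. Around CDK4, 23 of 42 neighbours rose and 9 fell in the IGF2BP2 knockout (median 0.48), where CDK4 was at -0.08. In the IGF2BP3 knockout 26 rose and 3 fell (median 0.57), where CDK4 was at -0.27. Neighbours of CDKN1A had medians of 0.03 and -0.03 in the IGF2BP2 and IGF2BP3 knockouts, where CDKN1A was at 1.70 and 1.64. Those of CCND2 had a median of 0.07 in the IGF2BP1 knockout, where CCND2 was at -1.96. The part of gene copy number in these changes was not tested.

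**Figure D5:**
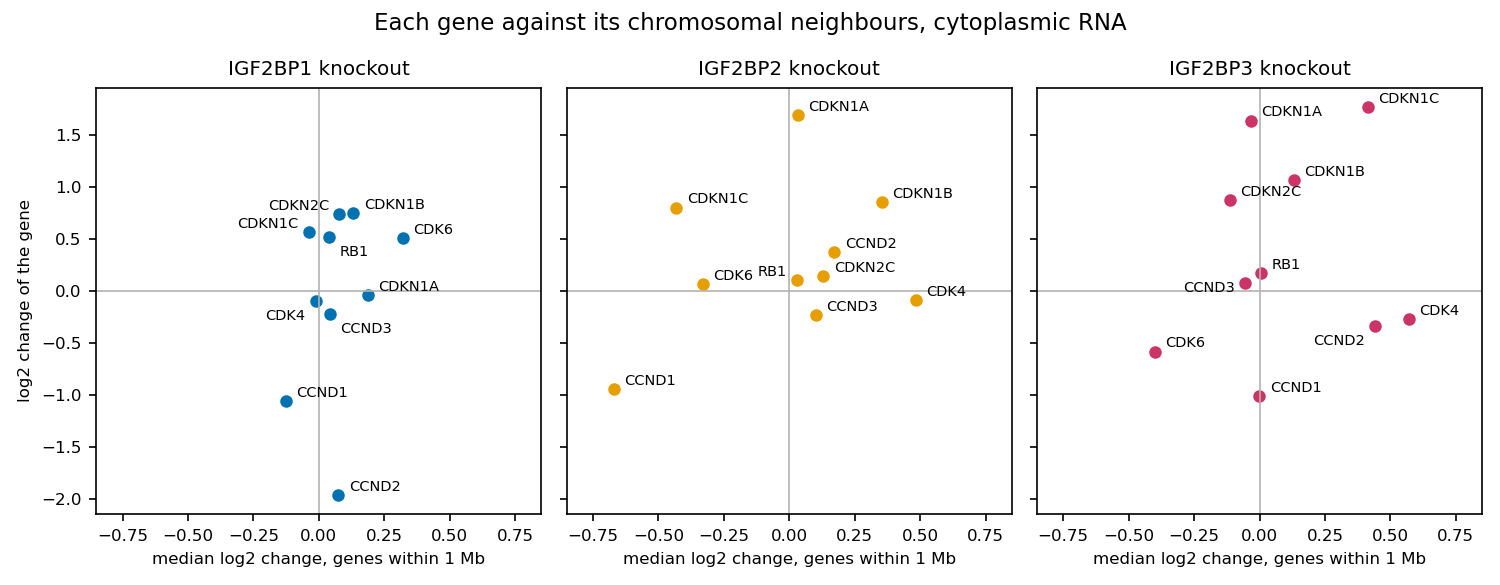
Log2 change of each of the 10 genes in cytoplasmic RNA (vertical axis) against the median log2 change of the genes tested within 1 Mb (horizontal axis), in 1 panel per knockout. CCND2 in the IGF2BP1 knockout and CDKN1A in the IGF2BP2 and IGF2BP3 knockouts stand near 0 on the horizontal axis, at 0.07, 0.03 and -0.03, and CCND1 in the IGF2BP2 knockout stands at -0.67.

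For each of the 10, the gene of most similar pattern was taken by the highest Pearson correlation of log2 mean levels over the 12 groups, among genes with a mean of at least 10 CPM (10270 compared, 10271 for CDKN1C). These were KAT7 for CCND1 (0.959), RPL26 for CCND2 (0.954), MBD2 for CCND3 (0.978), ATP5IF1 for CDK4 (0.959) and ADD2 for CDK6 (0.982). They were GNAO1 for CDKN1A (0.976), MYEF2 for CDKN1B (0.972), ZNF219 for CDKN1C (0.967), H2BC12 for CDKN2C (0.984) and TMTC1 for RB1 (0.947). The groups share batches and a library, so these values are descriptions.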

How the data were processed

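Whole-gene read counts and FPKM of 32 libraries were used as deposited. Per the submitters' processing notes, the authors used STAR, featureCounts, DESeq2 1.44.0 and the build GRCh38; the annotation is not given in the sources used here. The deposited FPKM divide by the gene span with introns, as GENCODE 29 spans showed (median deviation 0.00192% to 0.00203%), so FPKM served only as an alternative scale within genes. Of 62703 identifiers, 20403 had no symbol and held 0.349% to 0.713% of counts.

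The deposited counts were tested with edgeR 4.0.16 in R 4.3.3 (TMM, filterByExpr by group, quasi-likelihood test, Benjamini-Hochberg over all genes, call at adjusted p under 0.05), 1 fit per RNA kind with genotype and batch. The batch in the labels pairs control and knockout libraries. Intervals are the change ± 1.96 SE. The ratio fit used nuclear and cytoplasmic libraries of batches 1 to 4. Alternatives used DESeq2 1.42.0, limma 3.58.1, other scalings and filters, FPKM with a pseudocount of 1 or 0.1, no batch term, and left-out libraries. The scripts were tested on simulated data.

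The 10 genes and the gene lists were chosen with earlier results of these data known. Named genes were the 10, the targeted genes, KCNQ1OT1, CDKN2A, CCNE1, CCNE2, MDM2 and E2F1, the most similar gene for each of the 10, and per list and knockout up to 2 genes of lowest adjusted p in cytoplasmic RNA among genes whose nuclear call had the same direction; their values in other knockouts are given where useful. Comparisons with the IGF2BP1 change, levels per exon length, chromosomal neighbours, seed matches and the omission of early total controls were chosen after seeing the data. One gene of the marker lists is not reported here.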

Additional observations from a re-analysis of the deposited data

Results flagged for a closer look

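Among the 4 cytoplasmic control libraries, 1 stood apart from the others in CDKN2C: its level was 52.5 CPM, and its gap to the next library was 0.937 of the range of the group, above Dixon's 95% critical value for 4 libraries. Of 40 groups tested in this way 1 passed, and chance passes about 1 in 20.

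For 4 genes the change against the control differed between nuclear and cytoplasmic RNA by edgeR's quasi-likelihood test. In the IGF2BP2 knockout the nuclear log2 change exceeded the cytoplasmic one by 0.4496 for CDKN2C (adjusted p = 0.00264), by 0.3287 for CCND3 (adjusted p = 0.0416) and by 0.3117 for RB1 (adjusted p = 0.0356). In the IGF2BP3 knockout the difference for CDKN1B was -0.3637 (adjusted p = 0.019), with a larger rise in cytoplasmic RNA.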

How the results depend on the processing

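Depth was 13689067 to 26119480 counts per library, which limits CDKN1C most, at 37 to 46 counts per cytoplasmic control library. Of 90 changes of the 10 genes against the control, 81 kept their side of the threshold with DESeq2 and 9 lost their call. A change of sign counted as a reversal only where either fit called the gene. The corresponding losses were 1 with DESeq2-type size factors in edgeR, 5 without the filter and 1 with a filter at a mean of 1 CPM (which added 3). They were 11 in limma on log2(FPKM + 1), 7 in limma on log2(FPKM + 0.1) and 9 without the replicate block (the batch term). Upper-quartile scaling, which moved the median of all genes by up to 0.168, ended 3 calls and added 4. Without the replicate block the calls among the 10 genes in cytoplasmic, nuclear and total RNA were 7, 6 and 5 (IGF2BP1 knockout), 7, 8 and 6 (IGF2BP2) and 7, 7 and 8 (IGF2BP3), and 6 between nuclear and cytoplasmic control RNA. The number called differed by more than 1.5 times with DESeq2 in total RNA of the IGF2BP2 knockout, at 3 against 6, and between cytoplasmic controls of different batches, at 2 against 4. Calls of the nuclear to cytoplasmic ratio in the IGF2BP2 knockout were 1 with DESeq2, 1 with upper-quartile scaling and 1 without the replicate block, against 3. In the IGF2BP3 knockout they were 0 without the filter and 0 without the replicate block, against 1, and in the IGF2BP1 knockout 1 without the shared library, against 0. Leaving out single libraries gave, in the same order of RNA kinds, 6 to 9, 4 to 7 and 6 to 8 calls (IGF2BP1 knockout), 6 to 8, 7 to 9 and 3 to 8 (IGF2BP2) and 9 to 9, 8 to 9 and 6 to 9 (IGF2BP3). It gave 7 to 7, 3 to 6 and 3 to 7 between the IGF2BP3 and IGF2BP2 knockouts, 8 to 8 between control nuclear and cytoplasmic RNA, and 0 to 1, 1 to 5 and 0 to 2 for the ratio in the 3 knockouts. Directions reversed for CDK6 in total RNA of the IGF2BP1 knockout, at 0.0836, which was -0.2911 without control replicate 1 and -0.2960 without IGF2BP1 knockout replicate 1 (0.4492 without replicate 2), and for CDK4 between the IGF2BP3 and IGF2BP2 knockouts in cytoplasmic RNA, at -0.1878, which was 0.0241 without the replicate block. Without knockout replicate 1 the shared library alone represents the knockout. Without control replicate 1 the batch term absorbs the knockout library of batch 1, so the value again rests on the shared library. For CDK4, the batch 5 libraries of the IGF2BP3 knockout enter the comparison once the replicate block is dropped, and they stood above those of batches 3 and 4. Beyond this the cause was not tested.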
